A study of Mus musculus with 4 samples.

Results

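The 9 genes that lie beside Sin3b on mouse chromosome 8 were followed in hematopoietic stem and progenitor cells with and without Sin3b: Tpm4, Rab8a, Ap1m1, Klf2, Eps15l1, Cherp, Slc35e1, Med26 and Smim7. They were chosen by symbol for their position, Sin3b itself left out, and are 9 of the 32285 genes in the count matrices. All 9 lie on the side of Sin3b where Tpm4 marks the far end, within 588.3 kb from the start of Tpm4 to the start of Sin3b, and each had at least 50 UMIs in every pool over all kept cells. A UMI (unique molecular identifier) tags 1 captured RNA molecule. A further 24 genes of the matrices lie within 1 Mb of Sin3b.

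Male C57BL/6 mice gave the cells, which were sorted from bone marrow by surface markers (no lineage markers, with Sca-1 and cKit, or LSK) and profiled by single-cell RNA-Seq. Stem cells and multipotent progenitors lie in this fraction. The wild-type group was Sin3B F/F, with a floxed allele and no Cre. The knockout group was Sin3B F/F; Vav1-iCre+, in which the Vav1 promoter drives Cre in blood cells from embryonic development onward. Each genotype was studied untreated (homeostasis) and on day 9 after 5-fluorouracil (5-FU, 100 mg/kg), which is toxic to cycling cells. In each condition the cells of 2 mice per genotype were pooled, stained with a hashtag antibody for their genotype and loaded together, so there is 1 pool per genotype and condition. Differences between genotypes within a condition therefore have no replicate check. All intervals given here are 95% intervals and cover counting error only.

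Filtering left 10261 wild-type cells and 4140 knockout cells at homeostasis, against 4855 and 3299 after 5-FU, with median depths of 6604 to 10981 UMIs per cell. Sin3b was at 81.6 CPM (UMIs scaled to the same total in every pool) in wild type and 23.2 CPM in knockout at homeostasis, and at 112.8 and 15.1 CPM after 5-FU. The 4 LSK markers Kit, Ly6a, Cd34 and Ptprc were detected in every pool. Their summed level was 1071 CPM in wild type and 962 CPM in knockout at homeostasis, and 902 and 756 CPM with 5-FU. Markers of T cells and stroma summed to 1.16 CPM or less in every pool, with up to 3 of the 5 T cell markers at 0. Markers of mature neutrophils summed to 11.0 CPM in wild-type and 52.1 CPM in knockout cells at homeostasis, and to 5.57 and 4.35 CPM after 5-FU. At homeostasis dendritic markers summed to 73.8 and 65.2 CPM, and B lineage markers to 34.3 and 41.6 CPM. Mast and basophil markers summed to 34.8 and 20.5 CPM, and erythroblast markers to 29.3 and 27.0 CPM. After 5-FU these 4 lists summed to 66.4 and 66.3, 38.3 and 30.7, 35.5 and 25.2, and 3.27 and 5.49 CPM. At homeostasis only 857 knockout cells carried a tag that held 80% of a cell's hashtag UMIs, and values under that rule are given where they lie outside the counting interval. The libraries shared 76 cell barcodes.

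The protein Sin3B is a scaffold that brings histone deacetylases to promoters, and in dividing cells it works with E2F-family repressors to shut off cell cycle genes during quiescence. The genes beside it have no common pathway. Klf2 encodes a zinc-finger transcription factor known for holding lymphocytes in quiescence, and Tpm4 encodes a tropomyosin that coats actin filaments. Rab8a, Ap1m1 and Eps15l1 encode proteins of vesicle traffic, Med26 and Cherp proteins of transcription and splicing, Slc35e1 a member of a transporter family and Smim7 a small membrane protein.

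Klf2 and Tpm4 were the genes of the set with the lowest knockout-to-wild-type ratios in both conditions, so the DNA before their starts is shown. The stretches run from 250 to 31 bases before the RefSeq start of each gene (GRCm38.p6, plus strand), at chr8:72318812-72319031 for Klf2 and chr8:72135038-72135257 for Tpm4. The Tpm4 stretch begins at the end of the first exon of a non-coding Tpm4 transcript in GENCODE M21 and otherwise lies in its intron. Capitals mark matches to GGGCGG (the GC box of Sp and Klf factors) or CTANNNNTAG (the core of MEF2 sites), searched on both strands.
Klf2: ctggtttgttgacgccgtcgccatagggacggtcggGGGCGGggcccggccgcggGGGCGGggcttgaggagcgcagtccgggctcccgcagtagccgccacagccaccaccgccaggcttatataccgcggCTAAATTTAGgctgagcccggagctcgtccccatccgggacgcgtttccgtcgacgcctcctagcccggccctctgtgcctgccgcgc
Tpm4: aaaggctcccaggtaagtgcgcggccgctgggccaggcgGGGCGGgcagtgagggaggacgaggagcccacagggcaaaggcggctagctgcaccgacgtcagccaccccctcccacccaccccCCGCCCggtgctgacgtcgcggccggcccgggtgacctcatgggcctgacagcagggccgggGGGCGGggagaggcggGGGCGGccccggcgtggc
The Klf2 stretch held 1 match to CTANNNNTAG, which starts 118 bases before the RefSeq start, and 2 to GGGCGG. That of Tpm4 held 4 matches to GGGCGG and none to CTANNNNTAG. Neither held CACGTG, the E-box bound by Max dimers, partners through which Sin3 proteins are known to reach DNA. RefSeq's promoter table held 8 of the 9 genes (Ap1m1 was not matched). Of these, 1 had CTANNNNTAG, 1 (Eps15l1) had CACGTG and 5 had GGGCGG, against 2.83%, 5.01% and 28.5% of 32851 stretches of 220 bases at the same distance in all genes. GGGCGG can overlap other GC-rich motifs, and a match is a description of letters.

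A gene was counted as past the threshold when the higher of its levels exceeded the lower by more than 25%, and the background is the share of all genes with at least 100 UMIs over both pools that did so. At homeostasis 3 of the 9 genes were past it on the lower side in knockout cells (Klf2, Tpm4 and Smim7), against 10.2% of 14102 genes, and 2 on the higher side (Slc35e1 and Rab8a), against 10.6%. Rab8a lay close to the threshold and was under it in 3 alternatives, with log2 ratios of 0.31 with TMM scaling, 0.31 as a mean of per-cell CPM and 0.32 without trimming of cells, and Slc35e1 was under it in 2 (0.26 with the hashtag rule of 80% and 0.31 in cells of at least 5000 UMIs). After 5-FU 2 were past it on the lower side (Tpm4 and Klf2), against 10.8% of 12490 genes, and 0 on the higher side, against 8.17%. Klf2 and Tpm4 were past it in both conditions, 2 of 9, where 3.4% of 12114 genes were lower in both. None of the 9 was higher past the threshold in both, where 3.49% of genes were. Counting intervals lay above 0 for 3 genes without treatment and 4 after 5-FU, against 26.0% and 24.5% of genes, and below 0 for 5 and 2, against 24.8% and 28.9%. The median log2 ratio of the 9 was -0.18 at homeostasis and 0.035 after 5-FU, beside 0.01 and -0.02 over all genes. The sign of the ratio was the same in both conditions for 7 of the 9 genes. The share of all genes that kept their sign was not counted, so that number is a description only.

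**Figure D1:**
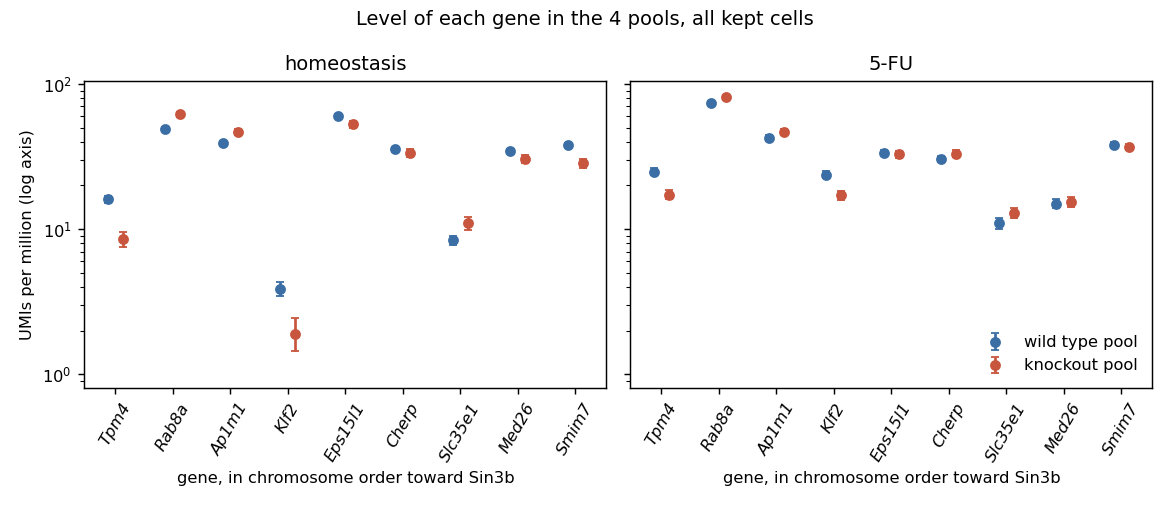
Level of each of the 9 genes in the wild-type and knockout pools of each condition, in CPM on a log axis, with 95% Poisson intervals. Tpm4 and Klf2 sit lower in the knockout pool in both panels, and the pools of the remaining genes differ less (levels are to be compared within a gene, not between genes).

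Klf2, the quiescence factor, lies on the plus strand at chr8:72319033-72321656 in GENCODE M21 (GRCm38), 401.6 kb from Sin3b. In sums over all cells, fewer cells of a type and less RNA per cell cannot be told apart. At homeostasis it was at 3.88 CPM in the wild-type pool (3.47 to 4.33, 324 UMIs) and 1.89 CPM in the knockout pool (1.45 to 2.43, 61 UMIs). After 5-FU it was at 23.7 CPM (22.4 to 25.0) in wild type and 17.1 CPM (15.9 to 18.4) in knockout. The knockout pool was the lower in both conditions, and the intervals of the levels did not overlap. Expressed as log2 of knockout over wild type, the ratio was -1.02 (-1.45 to -0.64) at homeostasis and -0.47 (-0.60 to -0.34) after 5-FU. With the hashtag rule of 80% the ratio at homeostasis was -0.61.

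Tpm4 lies on the plus strand at chr8:72134975-72153142, the farthest of the 9 from Sin3b at 570.1 kb. At homeostasis it was at 16.0 CPM in wild type (1340 UMIs) and 8.51 CPM in knockout (274 UMIs). After 5-FU it was at 24.8 CPM in wild type (1306 UMIs) and 17.3 CPM in knockout (759 UMIs). Knockout was the lower in both, with log2 ratios of -0.91 (-1.11 to -0.73) and -0.52 (-0.65 to -0.39). Averaged over clusters with equal weight of the genotypes, the ratio at homeostasis was -0.68, which lies outside the counting interval. Of the 14102 genes at homeostasis, 1.73% had a lower ratio than Tpm4 and 1.38% a lower one than Klf2, and after 5-FU 4.60% and 5.75% of 12490 genes did.

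Of the vesicle traffic genes, Rab8a and Ap1m1 were higher in knockout and Eps15l1 was lower at homeostasis. Rab8a, a GTPase of transport to the plasma membrane, was at 48.9 CPM in wild type and 61.6 CPM in knockout at homeostasis, and at 73.9 and 81.2 CPM after 5-FU. Knockout was the higher pool in both conditions, with log2 ratios of 0.33 (0.25 to 0.41) and 0.14 (0.07 to 0.20). With cells thinned to 4000 UMIs the ratio after 5-FU was 0.058. Ap1m1, the medium subunit of the AP-1 clathrin adaptor, was at 39.0 and 46.9 CPM at homeostasis and 42.5 and 46.5 CPM after 5-FU. It too was higher in knockout in both, with log2 ratios of 0.27 (0.18 to 0.35) and 0.13 (0.045 to 0.22). Eps15l1, an adaptor of clathrin-coated pits, was at 60.3 and 52.6 CPM at homeostasis (log2 ratio -0.20, -0.28 to -0.12) and 33.5 and 32.7 CPM after 5-FU (-0.037, -0.14 to 0.064). Its ratio at homeostasis was 0.036 under the hashtag rule of 80%.

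Neither of the nuclear genes was past the threshold. Med26, the Mediator subunit that recruits elongation factors, was at 34.5 CPM in wild type and 30.4 CPM in knockout at homeostasis (log2 ratio -0.18, -0.29 to -0.080), and the ratio was -0.055 under the hashtag rule of 80%. After 5-FU it was at 14.9 and 15.3 CPM (0.035, -0.12 to 0.19). Cherp, which works with the U2 small nuclear ribonucleoprotein in splicing, was at 35.4 and 33.4 CPM at homeostasis (-0.085, -0.19 to 0.016) and 30.3 and 33.1 CPM after 5-FU (0.13, 0.025 to 0.23). For both genes the sign differed between the conditions.

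Of the membrane protein genes, Smim7 was lower and Slc35e1 higher in knockout at homeostasis. Smim7 was at 37.9 CPM in wild type (3167 UMIs) and 28.3 CPM in knockout (912 UMIs) at homeostasis, a log2 ratio of -0.42 (-0.53 to -0.31). After 5-FU it was at 38.1 and 37.0 CPM (-0.041, -0.14 to 0.054). At homeostasis the ratio was below 0 in 9 of the 10 clusters that held at least 50 cells of each genotype, and its interval lay below 0 in 7. Slc35e1, of a family of nucleotide sugar transporters, was at 8.37 CPM in wild type and 10.9 CPM in knockout at homeostasis (0.39, 0.20 to 0.57), and at 11.0 and 12.9 CPM after 5-FU (0.24, 0.07 to 0.41).

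**Figure D2:**
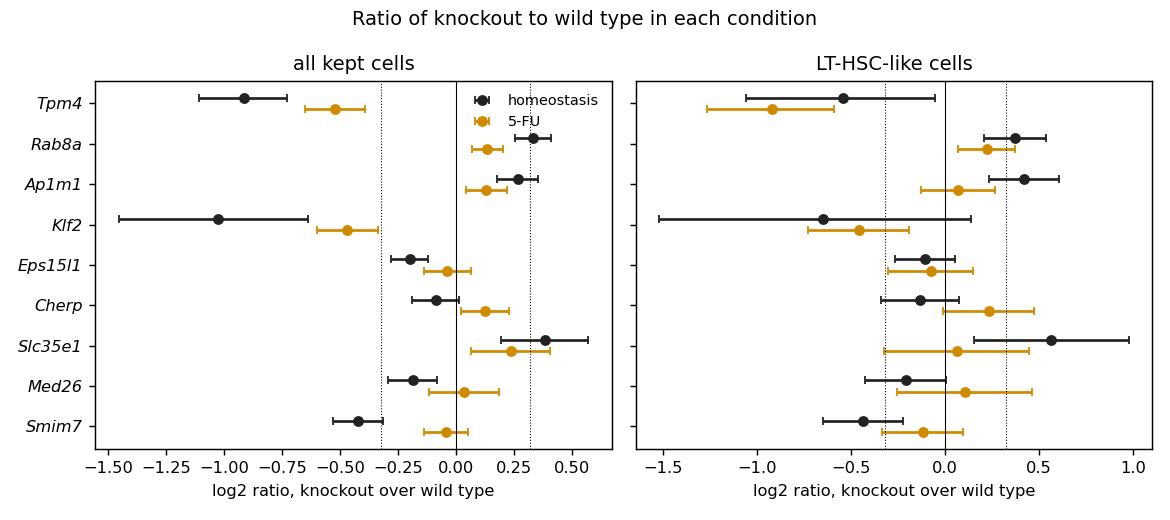
Log2 ratio of knockout over wild type for the 9 genes at homeostasis and after 5-FU, with 95% counting intervals, over all kept cells (left) and LT-HSC-like cells (right). Dotted lines mark the threshold of 25%. Klf2 and Tpm4 lie left of the lower line in both conditions and both panels, although the interval of Klf2 in LT-HSC-like cells at homeostasis crosses 0.

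The only test the design allows over the genotypes used the 4 pools together, with condition as a covariate and 1 residual degree of freedom (edgeR quasi-likelihood test, Benjamini-Hochberg adjustment over all 17214 genes). None of the 9 genes passed an adjusted p of 0.05, where 0.465% of genes were called lower and 0.546% higher. The lowest adjusted p was 0.0916, for Tpm4 (log2 fold change -0.70, edgeR), followed by 0.167 for Klf2 (-0.66). The unadjusted p was under 0.05 for 5 of the 9 genes (Tpm4, Klf2, Rab8a, Slc35e1 and Ap1m1) in this edgeR fit and for 2 (Tpm4 and Klf2) in DESeq2, beside 2296 and 903 of the 17214 genes. Sin3b gave an adjusted p of 0.0239 in the same edgeR fit. When libraries were scaled by their totals alone, the adjusted p in edgeR was 0.00821 for Tpm4 and 0.0342 for Klf2. DESeq2 gave adjusted p-values of 0.248 and 0.512.

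Long-term hematopoietic stem cell-like (LT-HSC-like) cells were those of clusters in which most markers of that class were raised, such as Hlf, Mecom and Procr. They were clusters 3 and 5 at homeostasis (2046 wild-type and 1578 knockout cells) and clusters 5 and 7 after 5-FU (1083 and 943). After 5-FU the genotypes filled these clusters unequally, with 245 wild-type and 641 knockout cells in cluster 5 and 838 and 302 in cluster 7. In LT-HSC-like cells at homeostasis 3 genes were past the threshold on the lower side, against 8.76% of 11364 genes, and 3 on the higher side, against 7.74%. Klf2, 1 of the 3 lower, had fewer than 100 UMIs there and would not have been counted in that background. After 5-FU 2 were lower, against 9.45% of 10255 genes, and 0 higher, against 9.65%. Klf2 and Tpm4 were again lower past the threshold in both conditions, where 2.5% of 10008 genes were, and none was higher in both, where 2.95% were. Intervals lay above 0 for 3 genes without treatment and 1 after 5-FU, against 15.4% and 15.3% of genes, and below 0 for 2 and 2, against 15.6% and 16.8%.

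In these cells Klf2 rested on 41 wild-type and 20 knockout UMIs at homeostasis, so its levels of 3.06 and 1.92 CPM gave a log2 ratio of -0.65 (-1.52 to 0.13). A difference was not detectable at that depth. After 5-FU it was at 30.05 CPM in wild type and 21.9 CPM in knockout, a log2 ratio of -0.46 (-0.73 to -0.19). That ratio was -0.70 with the genotypes weighted equally over clusters 5 and 7, and -0.28 when clustering left out the fixed lists alone. Tpm4 was at 7.46 and 5.09 CPM at homeostasis (-0.54, -1.06 to -0.056) and at 23.5 and 12.4 CPM after 5-FU (-0.92, -1.27 to -0.59). Under the hashtag rule of 80%, which left 406 LT-HSC-like knockout cells at homeostasis, the Tpm4 ratio there was 0.058. With the genotypes weighted equally over clusters 5 and 7 after 5-FU it was -0.52, and with clustering on all variable genes it was -0.59.

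The remaining genes in LT-HSC-like cells kept the direction they had over all cells at homeostasis. Slc35e1 had a log2 ratio of 0.56 (0.15 to 0.98), Ap1m1 0.42 (0.24 to 0.60) and Rab8a 0.37 (0.21 to 0.54), and Smim7 was at -0.43 (-0.65 to -0.22). After 5-FU the interval of Rab8a lay above 0 (0.22, 0.07 to 0.37) and those of Slc35e1, Ap1m1 and Smim7 crossed it. Among other marker lists in these cells, erythroblast markers summed to 92.7 CPM in wild type and 12.3 CPM in knockout at homeostasis. Lymphoid-primed markers summed to 461.0 and 344.2 CPM at homeostasis and 238.0 and 118.2 CPM after 5-FU. Dendritic markers were lower in knockout at homeostasis (154.1 and 83.8 CPM) and higher after 5-FU (69.2 and 115.7 CPM). The median ratio of immediate early genes there was -0.57 at homeostasis and -0.39 after 5-FU. The part of these in the ratios of the 9 genes was not tested. In the edgeR fit of the 4 LT-HSC-like pools (14236 genes) none of the 9 passed, where 0.562% of genes were called lower and 0.773% higher. The lowest adjusted p in that edgeR fit was 0.0882 for Tpm4 (log2 fold change -0.77), followed by 0.141 for Rab8a and 0.213 for Klf2. Of the 9, 5 had an unadjusted p under 0.05 in edgeR (Tpm4, Rab8a, Klf2, Smim7 and Ap1m1) and 0 in DESeq2, beside 2069 and 455 of the 14236 genes.

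In wild type the levels of Klf2 and Tpm4 varied more over clusters than those of the other 7 genes. Over the 10 clusters of each condition with at least 50 cells per genotype, the wild-type level of Klf2 spanned 8.18-fold at homeostasis. It ran from 1.19 CPM (0.33 to 3.06, 4 UMIs) in cluster 1 (megakaryocyte and erythroid-like) to 9.76 CPM (7.47 to 12.5) in cluster 8 (lymphoid-like). After 5-FU it spanned 7.20-fold, from 7.29 CPM in cluster 2 to 52.5 CPM in cluster 5 (LT-HSC-like). Tpm4 spanned 4.49-fold and 4.57-fold. The widest wild-type span among the other 7 genes was 1.71-fold at homeostasis (Slc35e1) and 2.41-fold after 5-FU (Med26). In knockout it was 2.13-fold (Eps15l1) and 3.19-fold (Slc35e1), beside 3.96-fold and 3.26-fold for Tpm4. Cluster 0 at homeostasis and cluster 2 after 5-FU had raised neutrophil and monocyte markers. DNA replication genes such as Ung and Uhrf1 stood among the leading genes of both, and they are called replication clusters here. In cluster 2 after 5-FU, Ctsg and Ms4a3 of the neutrophil and monocyte list also stood among the leading genes.

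After 5-FU the difference in Klf2 between genotypes stood in a few clusters. In cluster 5 it was at 52.5 CPM in wild type (41.7 to 65.3) and 16.4 CPM in knockout (13.1 to 20.4), a log2 ratio of -1.68 (-2.14 to -1.21). In cluster 6, unnamed and led by interferon and antigen presentation genes such as Cxcl10 and Cd74, it was at 41.3 and 16.6 CPM (-1.30, -1.79 to -0.85). In cluster 1, lymphoid-like, it was at 43.2 and 21.1 CPM (-1.03, -1.42 to -0.66). That cluster had 5 lymphoid and 3 neutrophil and monocyte markers raised, and myeloid genes such as Ccl3, Cd33 and Irf8 stood among its leading genes beside Dntt and Satb1. These were the clusters with the highest wild-type levels, and in each the knockout interval lay below the wild-type one. In the other 7 clusters the log2 ratio lay between -0.14 and 0.32 and every interval crossed 0, cluster 7 (LT-HSC-like) with 0.17 (-0.18 to 0.50) among them. Whether clusters differ in the effect of genotype could not be tested with 1 pool per genotype.

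At homeostasis the Klf2 ratio was below 0 in all 10 clusters, in cluster 10 with 6 wild-type and 0 knockout UMIs, and its interval lay below 0 in 2 of them. These were cluster 2, cycling-like (53 wild-type and 2 knockout UMIs, -2.70, -6.09 to -1.09) and cluster 8, lymphoid-like (61 and 7 UMIs, -1.36, -2.82 to -0.32). Cluster 12, of 7 wild-type and 5 knockout cells, was too small to be counted there. It held 16 of the 324 wild-type Klf2 UMIs and 1 of the 61 knockout ones. The summed level of lymphoid-primed markers was 889 CPM in wild type and 676 CPM in knockout at homeostasis, and 318 and 195 CPM after 5-FU. With the genotypes weighted equally over clusters, the Klf2 ratio was -0.79 at homeostasis and -0.60 after 5-FU.

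**Figure D3:**
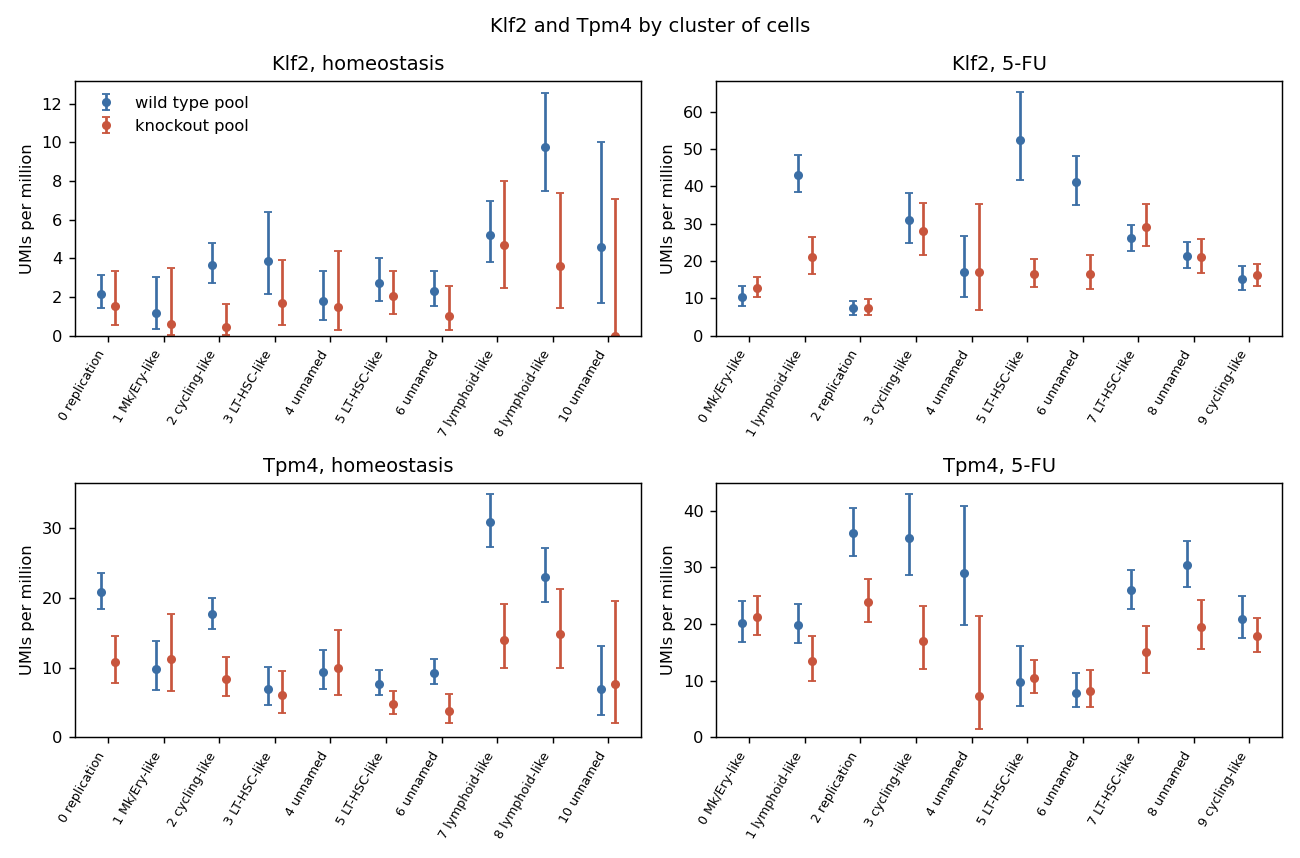
Klf2 (top) and Tpm4 (bottom) by cluster in wild-type and knockout cells, in CPM with 95% Poisson intervals, for clusters with at least 50 cells of each genotype. After 5-FU the Klf2 intervals of the genotypes are apart in clusters 1, 5 and 6, and those of Tpm4 are apart in clusters 2, 3, 7 and 8.

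The ratio of Tpm4 was below 0 in 7 of 10 clusters in each condition, with an interval below 0 in 6 of them. At homeostasis it was at 30.9 CPM in wild type and 14.01 CPM in knockout in cluster 7, lymphoid-like (-1.13, -1.67 to -0.65), and at 20.8 and 10.8 CPM in the replication cluster (-0.94, -1.46 to -0.48). After 5-FU it was at 35.2 and 17.0 CPM in cluster 3, cycling-like (-1.04, -1.62 to -0.51), and at 36.1 and 23.9 CPM in the replication cluster (-0.59, -0.88 to -0.31). Ratios above 0 were those of clusters 1, 4 and 10 in untreated mice and of clusters 0, 5 and 6 with 5-FU, and each of these intervals crossed 0. In megakaryocyte and erythroid-like cells it was at 9.85 and 11.2 CPM at homeostasis and at 20.2 and 21.2 CPM after 5-FU. In the LT-HSC-like clusters after 5-FU it was at 9.72 and 10.4 CPM in cluster 5 (0.067, -0.75 to 1.04) and at 25.9 and 15.0 CPM in cluster 7 (-0.78, -1.24 to -0.36).

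The log2 ratio of Rab8a was above 0 in 10 of 10 clusters at homeostasis, with an interval above 0 in 8, and in 9 of 10 after 5-FU, with an interval above 0 in 1. That of Ap1m1 was above 0 in 9 of 10 in both conditions, with intervals above 0 in 4 and 2. For Cherp and Med26 no interval lay above 0 at homeostasis, and an interval lay below 0 in 1 cluster, for Med26 (cluster 2, 36.6 and 29.0 CPM). After 5-FU 1 interval lay above 0, for Cherp in cluster 6 (25.2 and 35.1 CPM, 0.48, 0.070 to 0.89). As a mean of per-cell CPM, the ratio of Cherp over all cells after 5-FU was 0.24.

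Moving along the chromosome toward Sin3b at homeostasis, the log2 ratios ran -0.91 (Tpm4), 0.33 (Rab8a), 0.27 (Ap1m1), -1.02 (Klf2), -0.20 (Eps15l1), -0.085 (Cherp), 0.39 (Slc35e1), -0.18 (Med26) and -0.42 (Smim7). Tpm4 and Klf2, the genes with the lowest ratios, were not the nearest to Sin3b, and Rab8a and Ap1m1, which lie between them, had ratios above 0. Of the 24 other genes within 1 Mb, 12 had at least 100 UMIs in every pool. Nwd1, which ends 5.41 kb before Sin3b, had log2 ratios of 0.20 (0.13 to 0.27) at homeostasis and -0.01 (-0.093 to 0.076) after 5-FU. F2rl3, which starts 3.68 kb beyond it, had -0.055 (-0.22 to 0.11) and 0.17 (0.058 to 0.28). Neither was past the threshold over all kept cells, while in LT-HSC-like cells after 5-FU F2rl3 was (0.36, 0.13 to 0.60).

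Of these, 11 lie no more than 50 kb beyond Sin3b and are given here. Gm17435, annotated as antisense and overlapping Med26 on the opposite strand, was at -0.87 (-1.14 to -0.61) and -0.32 (-0.69 to 0.045), past the threshold at homeostasis. The other 10 (Fcho1, Zfp709, Zfp617, Zfp961, Fam32a, Calr3, 1700030K09Rik, Tmem38a, Nwd1 and F2rl3) lay between -0.26 and 0.26. Chosen after their values were seen, Gm16091, which overlaps Tpm4 on the opposite strand, was at -1.23 (-1.43 to -1.04) at homeostasis with 21 and 23 UMIs after 5-FU, and Hsh2d, beside Rab8a, was at -0.96 (-1.17 to -0.76) and -0.38 (-0.78 to 0.014).

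**Figure D4:**
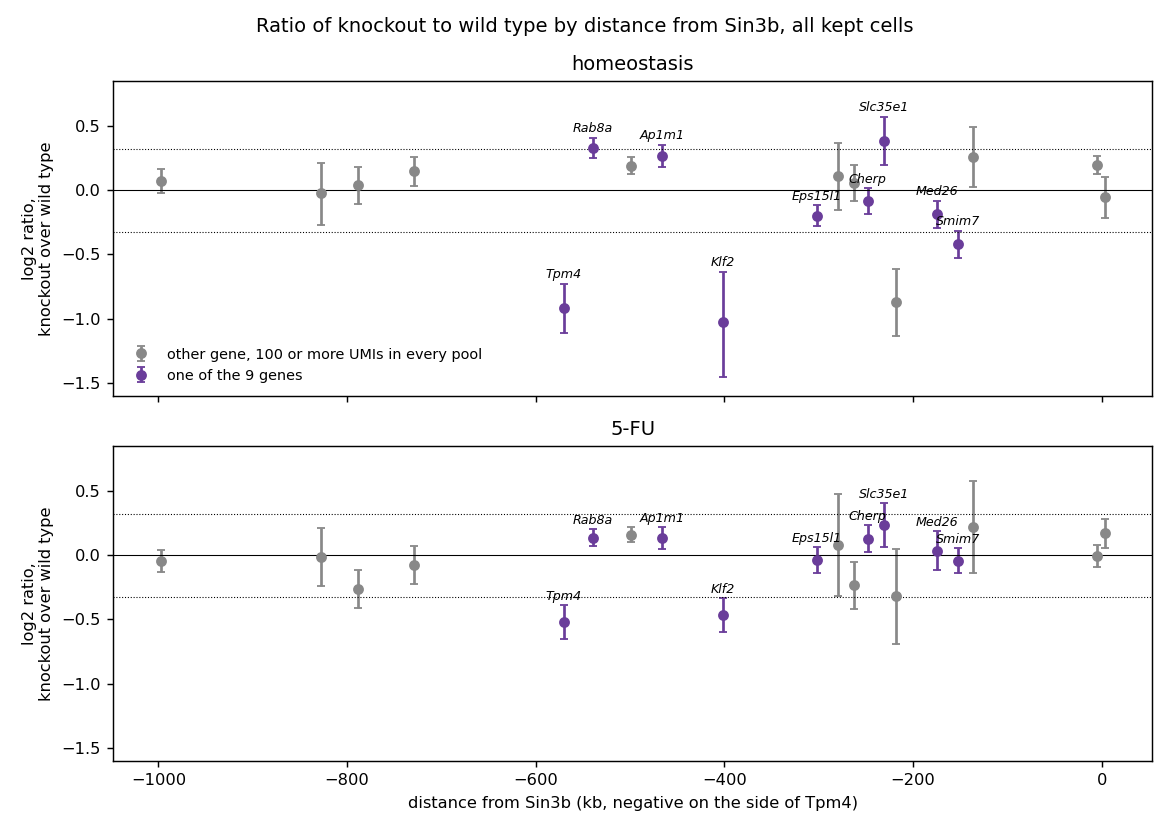
Log2 ratio of knockout over wild type against distance from Sin3b in kb for the 9 genes (purple) and 11 other genes, up to 1 Mb before and 50 kb beyond Sin3b, that had at least 100 UMIs in every pool (grey), with 95% counting intervals. Dotted lines mark the threshold of 25%. Tpm4 and Klf2 lie under the lower line on both panels, while Nwd1 and F2rl3, the genes closest to Sin3b, lie between the lines.

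Relatives and partners of the 9 genes elsewhere in the genome were compared in the same way over all kept cells. Of the other tropomyosins, Tpm2 was lower in knockout in both conditions, at 8.73 CPM in wild type and 3.45 CPM in knockout at homeostasis (-1.34, -1.64 to -1.05) and 7.54 and 2.85 CPM after 5-FU (-1.40, -1.71 to -1.11). Tpm1 had ratios of 0.14 and 0.10, and Tpm3 of -0.087 and -0.015. Of the 12 other Klf factors, 2 were higher and 1 lower past the threshold at homeostasis, against 10.6% and 10.2% of all genes. After 5-FU 1 of these factors was higher and 3 were lower, against 8.17% and 10.8%. Their extremes were Klf1, the erythroid factor, at 1.0 and 0.61, and Klf5 at -1.08 and -0.78, while the megakaryocyte and erythroid marker list had a log2 ratio of 0.93 at homeostasis and 0.72 after 5-FU.

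Genes known to act before Klf2 or to be its targets gave 0 higher and 2 lower of 11 past the threshold at homeostasis. The shares of all genes were 10.6% and 10.2%. After 5-FU the list gave 1 higher and 1 lower, against 8.17% and 10.8% of all genes. Its medians were 0.063 and -0.026. S1pr1, the receptor for lymphocyte egress, was at 0.18 and 0.23. Cdkn1a, a cell cycle inhibitor, was the lowest at homeostasis (-0.44), and Thbd, which encodes thrombomodulin, was the highest in both conditions (0.22 and 0.57). Immediate early genes are those that stimulation or handling of cells induces within minutes. Of 9 such genes, 5 were lower past the threshold at homeostasis and 6 after 5-FU, against 10.2% and 10.8% of all genes. The medians of that list were -0.36 and -0.53, beside 0.01 and -0.02 over all genes. Fos was at 37.3 and 16.3 CPM at homeostasis (-1.19) and 302.5 and 206.3 CPM after 5-FU (-0.55), and Egr1 at -1.14 and -0.91. The highest of the list were Dusp1 at homeostasis (0.18) and Nr4a1 after 5-FU (0.25). Klf2 itself is a gene of rapid induction. Over clusters, both genotypes together, its Pearson r with genes of that list ran from -0.55 (Fosb) to 0.52 (Zfp36) at homeostasis. With Fos it was 0.067 and with Egr1 -0.039. After 5-FU the r ran from 0.53 (Fosb) to 0.77 (Jun). Only genes with at least 100 UMIs in every pool were compared. The part of the immediate early genes' lower levels in the Klf2 ratio was not tested.

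Partners of the genes of vesicle traffic, transcription and splicing are counted beside the background of all genes (10.6% higher and 10.2% lower at homeostasis, 8.17% and 10.8% after 5-FU). Of the 31 other Mediator genes, 0 were past the threshold at homeostasis (median 0.036), and 4 were higher and 0 lower after 5-FU (median 0.069), from Med9 (0.47) to Med13l (-0.25). Of 6 AP-1 adaptor genes and of 8 Rab8a relatives and regulators, 0 were past it in either condition. Of 14 relatives and coat partners of Eps15l1, 1 was past it, Itsn1 at homeostasis (0.51). Of 11 U2 splicing partners of Cherp, 0 were past it, with medians of 0.021 and 0.16. Of 19 Slc35 genes, 1 was lower at homeostasis, and 1 was higher (Slc35b1, 0.53) and 1 lower after 5-FU. The lower gene was Slc35f2 in both, at -0.74 (-0.98 to -0.51) and -0.84 (-1.12 to -0.57).

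The genes whose level followed that of Klf2 most closely over clusters, both genotypes together, were Ccdc114, Fig4, Fmnl1, Wdr26 and Itgb7 at homeostasis, with Pearson r from 0.90 to 0.95 over 12 clusters. After 5-FU they were Plin2, Cgrrf1, Retreg3, Kdm4a and Zfp128, with r from 0.93 to 0.96 over 10 clusters. None was in both lists. The measure was log2(CPM + 10), 10762 genes were compared, and the clusters of a library share its depth and its free RNA, so these are descriptions. The r between Klf2 and Tpm4 was 0.61 at homeostasis and -0.47 after 5-FU.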

How the data were processed

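LSK cells had been profiled with 10x Genomics 3′ v3 chemistry in 2 gene expression libraries, 1 per condition, each with a hashtag library. The deposited values are raw UMI counts from Cell Ranger, in a different version for each condition according to the matrix headers. The submitters' processing notes name mm9, but 99.85% of the 32285 gene IDs were in GENCODE M21 (GRCm38), which is used for positions only. Levels are not compared between conditions, since condition and library cannot be told apart.

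Barcodes with at least 2921 UMIs were taken as cells at homeostasis (23931), and all 12753 deposited barcodes after 5-FU. Genotypes were called with HTODemux (Seurat 5.3.0), using the tag map in the study's methods, and cells with both tags or none were left out. Cells in the outer 2% of UMIs, genes or mitochondrial share, and those with at least 2 lineage-gene UMIs, were removed. Doublets within a genotype remain. The study's removal of lineage-primed stem cells was not repeated. Wild-type and knockout pools held 83504091 and 32198677 gene UMIs at homeostasis and 52649493 and 43883443 after 5-FU.

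UMIs were summed per genotype. Levels have exact Poisson intervals, and log2 ratios (0.5 added to each sum) exact conditional binomial intervals. The 4 pools were fitted with edgeR 4.0.16 (TMM, minimum count 10), with DESeq2 1.42.0 as an alternative, and the fit was tested on simulated data. Clusters were made per library with Scanpy 1.11.5 (2000 variable genes, 30 components, 20 neighbours, Leiden resolution 1) and named where most markers of a class were at least 1.5-fold higher than elsewhere. Clustering left out the listed genes, the neighbours of Sin3b and 2182 genes whose log2 ratio between genotypes exceeded 0.5. The last step was chosen after first clusters at homeostasis proved to be nearly of 1 genotype. Other genes were named if within 1 Mb with 100 UMIs in every pool, if extremes of a list of relatives, or if among the 5 most like Klf2. Some genes that this rule picks are not reported here. S1pr1, and the values of Egr1 at homeostasis and of Fos after 5-FU, were added after their values were seen. The genes and lists were chosen with earlier results of these data known.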

Additional observations from a re-analysis of the deposited data

Results flagged for a closer look

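Cherp and Med26 had log2 ratios of opposite sign in the 2 conditions over all kept cells, and the difference between conditions was not tested, since each condition has 1 pool per genotype. For Cherp the ratio was -0.085 at homeostasis and 0.13 after 5-FU, a difference of 0.213 (95% counting interval 0.070 to 0.36). For Med26 it was -0.18 and 0.035, a difference of 0.220 (0.038 to 0.40). Under the hashtag rule of 80% the ratios of Med26 were -0.055 and 0.017, closer together, and those of Cherp were -0.088 and 0.16. Neither was past the threshold of 25% in either condition. In LT-HSC-like cells the differences were 0.36 (0.050 to 0.67) and 0.31 (-0.094 to 0.72). Larger differences over all kept cells, without a change of sign, were those of Klf2 (0.56, 0.14 to 0.97), Tpm4 (0.39, 0.17 to 0.62) and Smim7 (0.38, 0.24 to 0.52). Those of Rab8a (-0.20, -0.30 to -0.095), Ap1m1 (-0.13, -0.26 to -0.011) and Slc35e1 (-0.15, -0.40 to 0.10) were negative.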

How the results depend on the processing

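Of 261 values of the 9 genes under an alternative, 251 stayed within the counting interval of the reported ratio, 9 moved outside it and 1 changed sign from a ratio that had been past the threshold. That was Tpm4 in LT-HSC-like cells at homeostasis, at 0.058 under the hashtag rule of 80%. Ratios of Eps15l1, Med26, Slc35e1 and Smim7 that had not been past it also changed sign in some alternatives. The cause was not tested. Klf2 was below 0 in every alternative run, and so was Tpm4 over all kept cells. Over all kept cells Klf2 spanned -1.14 to -0.61 at homeostasis, with -0.60 to -0.45 under 5-FU, and Tpm4 spanned -0.93 to -0.68, with -0.59 to -0.49 under 5-FU. With a fold of 1.5, the genes past it were 2 at homeostasis and 0 after 5-FU over all kept cells, and 1 and 1 in LT-HSC-like cells. The LT-HSC-like gene at homeostasis was Klf2, with 41 wild-type and 20 knockout UMIs and an interval that crossed 0. The share of all genes past that fold was not counted, so these numbers are a description only. The clustering with only the fixed lists left out, chosen after seeing the data, gave 1 gene past 25% in LT-HSC-like cells after 5-FU in place of 2. The share of all genes under that clustering was not counted either.

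Genes called in the fit of all kept cells were 174, and 644 with scaling by library size or 496 without the low-count filter. In LT-HSC-like cells they were 190, and 67 in DESeq2 or 914 without the filter. Tpm4 passed in 3 of these alternatives, with adjusted p of 0.00821, 0.0197 and, in LT-HSC-like cells, 0.00621. Klf2 passed in 1 (0.0342) and Rab8a in 1, in LT-HSC-like cells (0.0476). Naming at 2-fold left no LT-HSC-like cells after 5-FU and gave no value. Leaving out a condition leaves no residual degrees of freedom, so each condition's own ratio stands in its place. No pairing finer than the library was possible because each genotype has 1 pool per condition and the labels number no replicates beyond 1. The 4-pool fit has condition as a covariate, which compares the genotypes within each library. Depth limits Klf2 most, with 61 knockout UMIs at homeostasis.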

Other observations

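Cells to which no hashtag was assigned hold the same genes. At homeostasis 6283 such cells had Sin3b at 29.0 CPM (27.4 to 30.7). Klf2 was at 3.29 CPM (2.77 to 3.89) and Tpm4 at 11.6 CPM (10.6 to 12.7) in them. These levels lay between those of the knockout and the wild-type pool. Sin3b was nearer to the knockout pool (23.2 CPM) than to wild type (81.6 CPM). The Klf2 interval lay above that of the knockout pool (1.45 to 2.43) and overlapped that of wild type (3.47 to 4.33). The Tpm4 interval lay apart from those of both pools. After 5-FU 3290 such cells had Sin3b at 21.7 CPM (19.6 to 23.9), Klf2 at 15.3 CPM (13.5 to 17.2) and Tpm4 at 15.7 CPM (13.96 to 17.7), and the last 2 lay below both pools. Cells with both tags had Klf2 at 3.31 CPM (2.52 to 4.26) at homeostasis and 20.5 CPM (17.9 to 23.4) after 5-FU. Cells with no tag or both tags were not filtered for UMIs, genes, mitochondrial share or lineage genes, unlike the pools, and entered no comparison.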
